A study of Homo sapiens with 145 samples.

Results

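HT-1080, a cell line established from a human fibrosarcoma, was exposed for 24 h to 1 µM etoposide (ETP) or to its DMSO vehicle, and gene expression was measured on arrays. The comparison held 10 of the 145 arrays of the series, 5 of ETP 1 µM and 5 of vehicle, chosen by their titles. Both groups were of the same line, grown in the same serum-containing medium, and the vehicle cells also received DMSO. Arrays of both groups carried the replicate numbers 1, 3, 4, 5 and 6. The title of the ETP 1 µM array numbered 4 ends in -nf, as does that of the 0.3 µM array numbered 3. The labels do not explain this suffix. The labels do not say whether a number stands for a separate culture, so p-values measure only the spread between these arrays, which may be technical. The other doses of etoposide, from 0.003 to 3 µM, shared the fit, and the 0.3 and 3 µM groups were also set against ETP 1 µM.

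The arrays numbered 2 were left out by the rule that chose the arrays, on the ground of their response. The values given here describe that ground and are not separate support for it. Leaving arrays out for their response can narrow the spread on which the p-values rest. The vehicle side of the pair numbered 2 was the average of 2 arrays, with titles ending in -nf and -o. The change from vehicle to ETP 1 µM on the pair numbered 2 correlated at 0.20 across genes with the mean change of the other 5 pairs, whereas each of those correlated at 0.72 to 0.89 with the mean of the rest. On the pair numbered 2, MCM6, a subunit of the replicative helicase, changed by -0.11 on the log2 scale, against -2.71 to -1.83 on the other pairs. The cyclin-dependent kinase inhibitor CDKN1A changed by 1.11 there, against 1.47 to 2.11 on the others, and TREM2 by 4.22, against 3.73 to 5.49. Why these arrays differ was not tested. Counts with number 2 kept that differ by more than 1.5 times are given beside the result or in the closing section.

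Etoposide is a topoisomerase II poison. It holds the enzyme on DNA after the strands have been cut, which leaves DNA double-strand breaks that activate the ATM and ATR kinases and, through them, the transcription factor p53. p53 switches on genes of cell cycle arrest, repair and death. Its target CDKN1A inhibits cyclin-dependent kinases, which keeps RB-family proteins on the promoters of replication genes (through E2F sites) and of mitosis genes (through CHR elements) and lowers their transcription. In bulk samples such as these, fewer cells of a kind (for example fewer cells in mitosis) and less RNA per cell cannot be told apart.

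Values are log2 probe set summaries that the authors made with GCRMA. Among 11714 tested genes, 1112 were called changed at ETP 1 µM, which is 9.49%. A call required a Benjamini-Hochberg adjusted p under 0.05 by limma and a change of at least 1.5-fold (0.585 on the log2 scale). Of these, 644 were higher (5.50% of the tested genes) and 468 were lower (4.00%). The change reached 2-fold for 205 of the higher and 87 of the lower genes, and 4-fold for 32 and 3. In 1085 of the 1112 genes the direction was the same in all 5 pairs of arrays, and in 808 the 5 dosed values were all above or all below the 5 vehicle values. Over all tested genes such a separation occurred in 17.6%, as 10.2% higher and 7.44% lower. With number 2 kept, 966 genes were called, of which 791 were called in the same direction as without it. Group means under 4 were treated as background level. This held for the vehicle mean of 91 genes called higher and for the dosed mean of 20 called lower, and the size of those changes is uncertain. Array medians lay between 3.55 and 3.57 in ETP 1 µM and between 3.54 and 3.55 in vehicle (two-sided exact permutation test without pairing, p = 0.103). Quantile normalization in GCRMA draws array medians together, so they cannot show whether the arrays were alike before it.

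**Figure D1:**
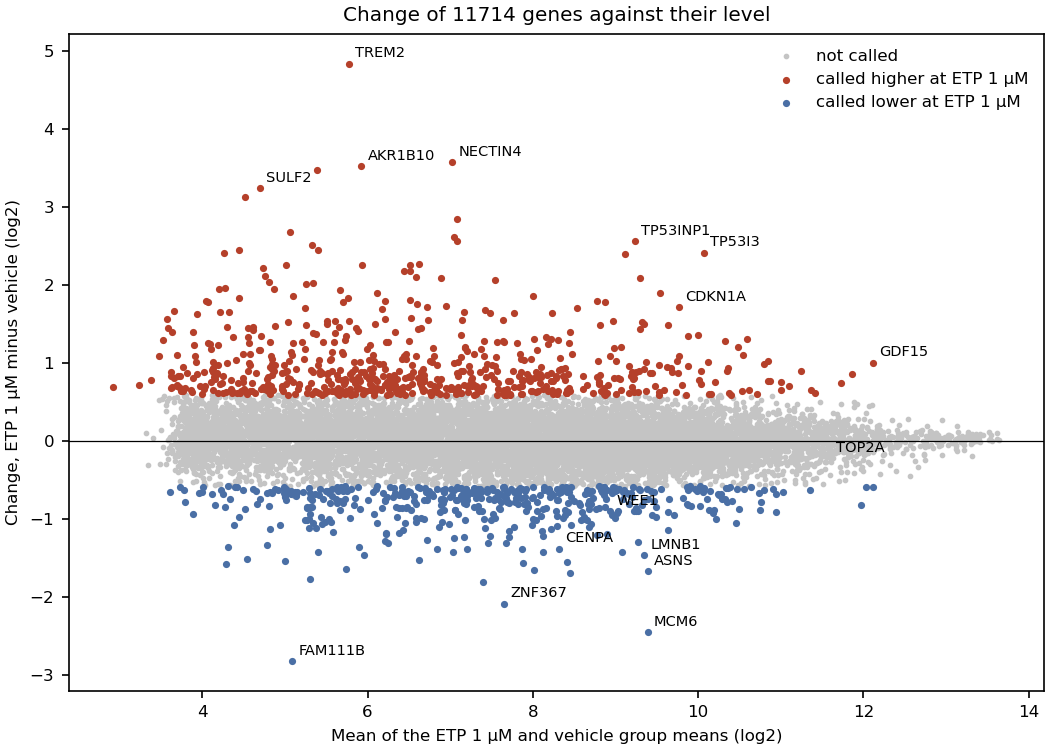
Change of each tested gene (ETP 1 µM minus vehicle, log2, vertical axis) against the mean of both group means (log2, horizontal axis), 1 point a gene, called genes in colour. The largest rise is that of TREM2 at 4.83 and the largest fall that of FAM111B at -2.83, and the rises reach further from 0 than the falls.

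The measured cells kept the expression of a mesenchymal line at ETP 1 µM. Of 10 mesenchymal markers, 8 passed the filter on low values and none was called changed. Vimentin (VIM) averaged 13.15 at ETP 1 µM and 13.27 in vehicle, although its other probe set was called lower, and fibronectin (FN1) 12.60 and 12.60. THY1 and NT5E, which also belong to the marker set, were under 4 in both groups. Of 11 housekeeping genes none was called, and GAPDH averaged 13.36 in both groups.

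p53 targets formed the clearest group of rises. Of 47 measured targets, 34 were higher at ETP 1 µM and none was lower, with a median change of 1.02 against 0.02 over all tested genes. The targets were taken from textbook knowledge in 3 lists, of arrest and feedback, of metabolism and repair, and of death. The lists were drawn up with earlier results of these data known, so the counts are a description and not an independent test. In the first list 14 of 18 measured members were higher, in the second 16 of 19 and in the third 4 of 11. The counts of the first and second list stayed at 14 and 16 with number 2 kept.

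CDKN1A, on chromosome 6, read 10.81, 10.57, 10.39, 10.62 and 10.71 on the ETP 1 µM arrays numbered 1, 3, 4, 5 and 6, against 8.83, 9.10, 8.90, 9.11 and 8.61 on the vehicle arrays in the same order. All dosed arrays lay above all vehicle arrays, and the change was 1.71 ± 0.08 (SE), or 3.28-fold, with an adjusted p of 3.9e-20 by limma. MDM2, the ubiquitin ligase that degrades p53 and is itself a p53 target, read 11.35, 11.10, 11.05, 11.33 and 11.42 at ETP 1 µM, against 9.98, 9.87, 9.77, 10.11 and 9.99 in vehicle. Its groups did not overlap either, the change was 1.31 ± 0.06, and all 6 of its other probe sets above the filter were also called higher. PPM1D, a phosphatase that switches off ATM and p53 signalling, was higher by 1.79. Negative regulators of p53 thus rose beside the arrest gene, with MDM4, which binds and restrains p53, at -0.12 and not called.

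The largest change in the arrest and feedback list was that of TP53INP1, a nuclear protein that promotes p53 phosphorylation and autophagy. It read 10.62, 10.01, 10.51, 10.74 and 10.69 at ETP 1 µM, against 7.73, 8.00, 7.98, 8.14 and 7.90 in vehicle, a change of 2.56 ± 0.09. The groups did not overlap, and the dosed array numbered 3 was the lowest of the 5. SPATA18, which acts in mitochondrial quality control, changed by 2.00, the stress kinase PLK3 by 1.80 and SESN1, a restraint on mTORC1, by 1.53. PHLDA3, an inhibitor of AKT signalling, rose by 1.45 and GADD45A, a stress sensor, by 0.70. CCNG1, a cyclin of the p53 feedback, read 0.50 and RPS27L 0.26, both with non-overlapping groups but under 1.5-fold.

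Among repair and metabolism targets, the damage sensors of nucleotide excision repair rose in parallel. XPC read 9.55, 9.26, 9.64, 9.78 and 9.55 at ETP 1 µM, against 8.06, 8.23, 7.98, 8.15 and 7.98 in vehicle, with a change of 1.48 ± 0.06. DDB2, its partner in recognising damage, changed by 1.52 ± 0.07. In both genes every dosed array was above every vehicle array. The ceramidase ACER2 rose by 2.44, POLH, a translesion polymerase, by 1.02, and RRM2B, the p53-dependent subunit of ribonucleotide reductase, by 0.87. TIGAR, which lowers glycolytic flux, rose by 1.08, and the stress cytokine GDF15 by 1.00.

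Of the death genes, 4 of 11 passed both limits, and 10 of 11 were higher at an adjusted p under 0.05 by limma when the fold limit is left aside. That p limit alone is a loose one, passed by 6366 of the 11714 tested genes in either direction. TP53I3, a quinone oxidoreductase linked to oxidative death signalling, read 11.16, 10.76, 11.47, 11.44 and 11.53 at ETP 1 µM, against 8.82, 8.82, 9.04, 8.68 and 8.95 in vehicle, a change of 2.41 ± 0.09. The death receptor FAS read 9.52, 9.02, 9.28, 9.62 and 9.49 at ETP 1 µM, against 7.70, 7.49, 7.68, 7.75 and 7.82 in vehicle, a change of 1.70 ± 0.07. Neither gene had overlapping groups. BBC3 (PUMA), a BH3-only activator of mitochondrial death, rose by 0.87, while PMAIP1 (NOXA) read 0.42, the death receptor TNFRSF10B 0.13 and PERP 0.22, all under 1.5-fold. In the wider BCL2 family, 3 of 14 were higher and 2 lower. The pro-death member BIK rose by 1.13. Of the pro-survival members, BCL2L1 was higher by 0.72, BCL2 fell by 1.13 and BCL2A1 fell by 0.99. When number 2 was kept, BCL2 read -0.63 (adjusted p = 0.0618 by limma) and BCL2A1 -0.49 (adjusted p = 0.245), and neither was called.

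**Figure D2:**
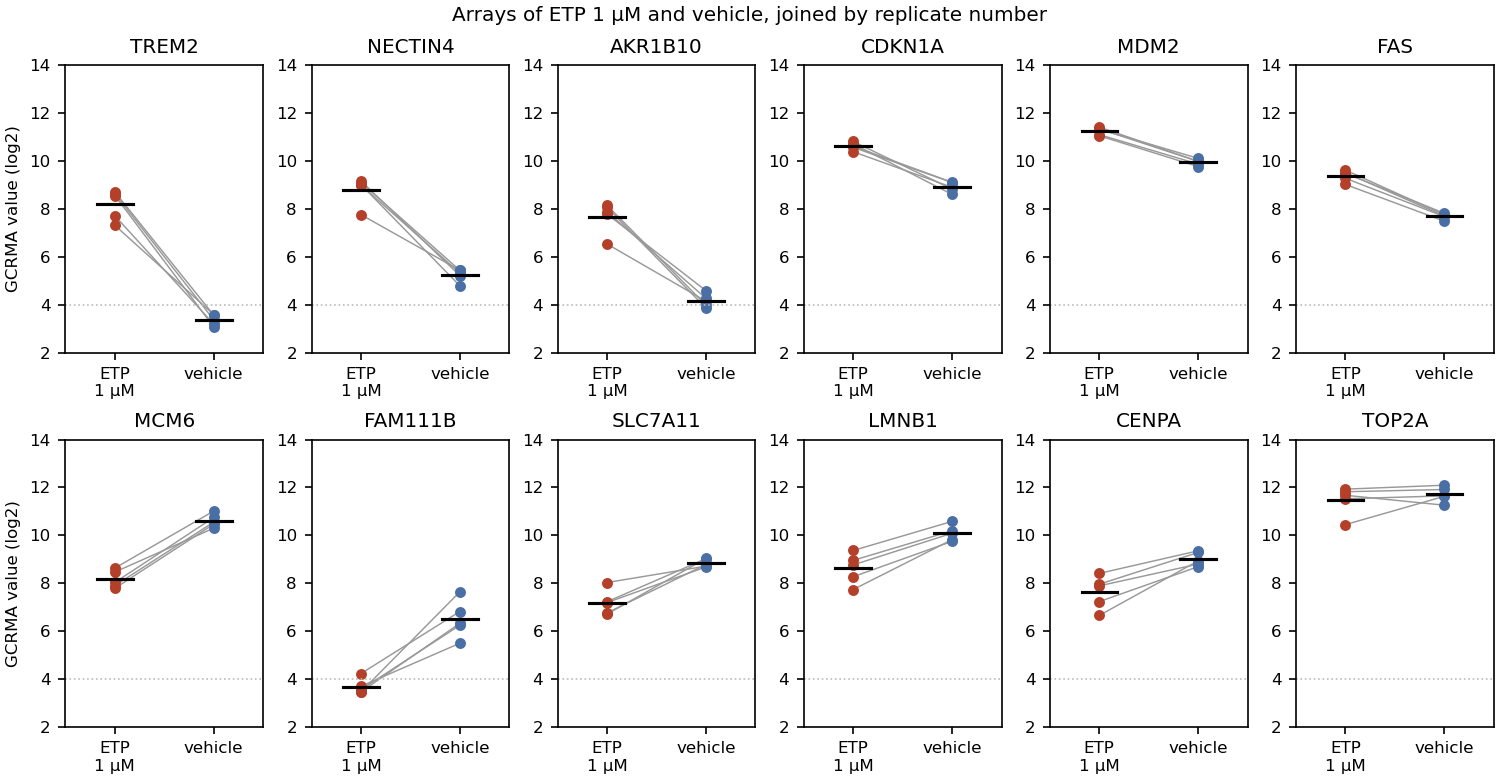
Values of 12 genes on each array (log2, vertical axis), ETP 1 µM at the left and vehicle at the right of each panel, with grey lines joining arrays of the same replicate number, black bars for group means and a dotted line at 4, under which a mean was treated as background level. All genes but TOP2A are separated between the groups, and the dosed array numbered 3 lies apart in NECTIN4, AKR1B10 and TOP2A.

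Genes of replication licensing were lower. MCM2 to MCM7 form the helicase ring that is loaded at origins in G1, CDC6 and CDT1 load it, and CDC45 and the GINS proteins activate it. Of 19 members of that list, 13 were lower and none was higher, with a median change of -0.76. All 6 subunits of the ring were among them. With number 2 kept, 9 members were lower, and without number 3, 10.

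MCM6 had the largest fall of the ring. It read 8.63, 8.46, 7.78, 7.90 and 8.03 at ETP 1 µM, against 11.01, 10.30, 10.46, 10.55 and 10.74 in vehicle. The lowest vehicle array was above the highest dosed one, and the change was -2.45 ± 0.09, or 5.47-fold lower, with an adjusted p of 3.6e-22 by limma. MCM3 read 8.23, 7.69, 7.10, 7.44 and 7.56 at ETP 1 µM, against 9.83, 9.12, 8.99, 9.27 and 9.28 in vehicle, a change of -1.69 ± 0.08. The array numbered 1 was the highest of its group in both genes and in both groups. MCM2 fell by 1.30, MCM5 by 1.23, MCM7 by 0.91 and MCM4 by 0.90. GINS2 fell by 1.56 and CDC45 by 1.01. CDT1, which loads the ring, read -0.13, its inhibitor GMNN (geminin) -0.43, and GINS4 0.31, none of them called.

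The promoters of MCM6 and MCM3 are shown because both hold E2F motifs, the sites through which RB-family proteins act on replication genes. They are RefSeq sequences of GRCh38.p14, from 250 bases before the gene start to 50 after it, 5′ to 3′ on the strand of the gene. Both genes lie on the minus strand, MCM6 with this window at chr2:135876394-135876693 and MCM3 at chr6:52284693-52284992. Capitals mark the E2F motifs, searched as TTTCCCGC, TTTGGCGC and TTCCCGCC on both strands, which can overlap each other.
MCM6: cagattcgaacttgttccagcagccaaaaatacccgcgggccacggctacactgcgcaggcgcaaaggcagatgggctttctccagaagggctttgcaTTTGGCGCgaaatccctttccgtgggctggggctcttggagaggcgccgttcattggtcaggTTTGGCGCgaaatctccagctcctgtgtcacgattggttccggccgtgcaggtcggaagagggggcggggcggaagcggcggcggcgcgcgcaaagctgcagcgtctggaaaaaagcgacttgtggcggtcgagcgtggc
MCM3: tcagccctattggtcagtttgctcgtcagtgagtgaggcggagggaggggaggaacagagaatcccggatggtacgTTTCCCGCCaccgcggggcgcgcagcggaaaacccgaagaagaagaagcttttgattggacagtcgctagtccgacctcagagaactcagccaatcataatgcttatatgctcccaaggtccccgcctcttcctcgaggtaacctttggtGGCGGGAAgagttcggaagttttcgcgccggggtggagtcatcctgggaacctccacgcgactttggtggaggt
The MCM6 window held 2 matches and the MCM3 window 3. Of 44 replication genes in both lists, 38 had a promoter in the table, and 20 of these (52.6%) held an E2F motif, against 7.59% of the 9650 tested genes with a promoter and 4.62% of all 27305 promoters. A match is a description of the letters in the window, not a measured site.

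The polymerase and nucleotide supply list moved in part. Of 25 members, 6 were lower and 1 was higher. POLA1, the catalytic subunit of the primase-polymerase that starts each DNA strand, read 6.23, 6.08, 5.63, 5.74 and 5.59 at ETP 1 µM, against 7.69, 7.15, 7.32, 7.36 and 7.40 in vehicle, a change of -1.53 ± 0.09 without overlap. POLE2 fell by 1.25, RFC4, of the clamp loader, by 0.95, POLD3 by 0.80 (not called with number 2 kept), RFC2 by 0.69 and PRIM1 by 0.68. The member called higher was PCNA, the sliding clamp, which is also a p53 target and changed by 0.74. The thymidylate synthase TYMS read 0.03 and DUT, which removes dUTP, -0.15, neither called.

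Of 19 members of the E2F and retinoblastoma list, 4 were lower: the repressor E2F8 by 1.36, the mitotic activator FOXM1 by 0.81, RBL1 by 0.71 and MYBL2 by 0.70. With number 2 kept, 2 of the 19 were lower. E2F7, an atypical repressor and known p53 target, read 0.27 with non-overlapping groups and was not called. Among cyclins and their kinases, CCNE2, the cyclin of S phase entry, fell by 1.82, and WEE1, a kinase that restrains mitotic entry, by 0.91. Of 18 members, 5 were lower, against 8 with number 2 kept or without number 6. CDK1 itself, the kinase of mitotic entry, read 0.03, and its dosed arrays, from 10.32 to 11.41, spread around the vehicle arrays, from 10.85 to 11.18. Outside the lists, the largest fall was that of FAM111B, a trypsin-like protease of the nucleus. It read 4.22, 3.46, 3.69, 3.46 and 3.55 at ETP 1 µM, against 6.81, 6.32, 5.49, 7.64 and 6.24 in vehicle. Its dosed mean of 3.68 was under 4, so the size of its change of -2.83 ± 0.26 is uncertain. ZNF367, a zinc finger protein, fell by 2.09, CDCA7, which acts in DNA methylation maintenance, by 1.57, and WDR76 by 1.52.

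Genes of mitosis were lower as well. Of 68 members of 4 lists, 32 were lower and none was higher, with a median change of -0.58, against -0.45 for the 44 replication genes. Of the 68, 44 were lower with number 2 kept and 24 without number 3. Among mitotic kinases and checkpoint genes, 14 of 21 were lower, against 9 of 21 without the dosed array numbered 3 and 16 of 21 with number 2 kept. Among kinesins, 7 of 13 were lower, against 12 of 13 with number 2 kept and 6 to 11 when 1 number or array was left out, 11 being without number 1. Centromere and kinetochore genes gave 7 of 19, and condensin and cohesin genes 4 of 15, which became 8 with number 2 kept and ranged from 3 to 7 when 1 number or array was left out, 7 being without number 5.

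AURKB, the kinase that corrects chromosome attachment, read 7.74, 6.48, 6.84, 7.16 and 7.44 at ETP 1 µM, against 8.68, 8.16, 8.01, 8.18 and 8.41 in vehicle, a change of -1.16 ± 0.16. PLK4, which starts centriole duplication, fell by 1.09, CDC20, which activates the anaphase-promoting complex, by 1.00, and PLK1 by 0.98. CENPA, the histone that marks the centromere, read 8.41, 6.65, 7.23, 7.89 and 7.96 at ETP 1 µM, against 9.35, 8.93, 8.69, 8.80 and 9.28 in vehicle, a change of -1.38 ± 0.15. Its groups were separated, but the dosed arrays spread more widely. The dosed SD was 0.69 and the vehicle SD 0.29, and the array numbered 3 was the lowest dosed one in both AURKB and CENPA. SPC25, a subunit of the outer kinetochore, fell by 1.43, NDC80 by 1.08, HJURP, which places CENPA, by 1.00, the spindle kinesin KIF15 by 1.39 and KIFC1 by 1.13. Not every mitotic gene passed: KIF20A read -0.49, CENPF -0.41, KIF2C -0.41, PTTG1 (securin) -0.16 and BUB3 -0.09. When number 2 was kept, KIF20A read -1.06, CENPF -0.79 and KIF2C -0.81, and all 3 were called lower.

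SPC25, CENPA and KIFC1 are shown because their promoters hold both a CHR element and CCAAT boxes, the letters known from genes that peak in G2 and mitosis. The windows and source are as for the promoters above: SPC25 at chr2:168890381-168890680 on the minus strand, CENPA at chr2:26785806-26786105 and KIFC1 at chr6:33391573-33391872, both on the plus strand. Capitals mark the CHR element, searched as TTTGAA and TTCGAA, and CCAAT, each on both strands. CHR and CCAAT letters do not overlap each other, and E2F motifs in these windows are in lower case.
SPC25: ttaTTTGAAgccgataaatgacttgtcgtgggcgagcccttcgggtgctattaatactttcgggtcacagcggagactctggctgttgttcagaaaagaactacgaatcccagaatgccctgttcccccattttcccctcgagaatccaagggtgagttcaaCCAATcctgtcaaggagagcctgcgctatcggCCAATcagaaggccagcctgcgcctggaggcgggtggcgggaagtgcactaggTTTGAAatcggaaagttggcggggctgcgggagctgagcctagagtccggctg
CENPA: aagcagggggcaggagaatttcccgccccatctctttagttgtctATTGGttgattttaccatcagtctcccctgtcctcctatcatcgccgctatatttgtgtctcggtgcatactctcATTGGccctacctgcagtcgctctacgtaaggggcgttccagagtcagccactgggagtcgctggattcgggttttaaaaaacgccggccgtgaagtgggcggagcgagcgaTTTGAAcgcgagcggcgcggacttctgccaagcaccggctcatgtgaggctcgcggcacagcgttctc
KIFC1: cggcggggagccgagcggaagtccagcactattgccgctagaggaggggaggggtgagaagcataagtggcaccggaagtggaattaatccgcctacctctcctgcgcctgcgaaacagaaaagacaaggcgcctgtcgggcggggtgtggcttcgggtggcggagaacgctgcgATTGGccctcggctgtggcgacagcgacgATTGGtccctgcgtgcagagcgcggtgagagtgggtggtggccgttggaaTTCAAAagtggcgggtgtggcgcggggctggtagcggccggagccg
Of the 68 mitosis genes, 55 had a promoter in the table. A CHR element was in 39 of these (70.9%), against 11.5% of tested genes and 16.6% of all promoters, and a CCAAT box in 36 (65.5%), against 36.9% of tested genes. Among the genes called lower with a promoter, 22.0% held a CHR element. The p53 half-site was in 3 of 38 p53 targets (7.90%), against 5.31% of tested genes, within this window of 300 bases.

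**Figure D3:**
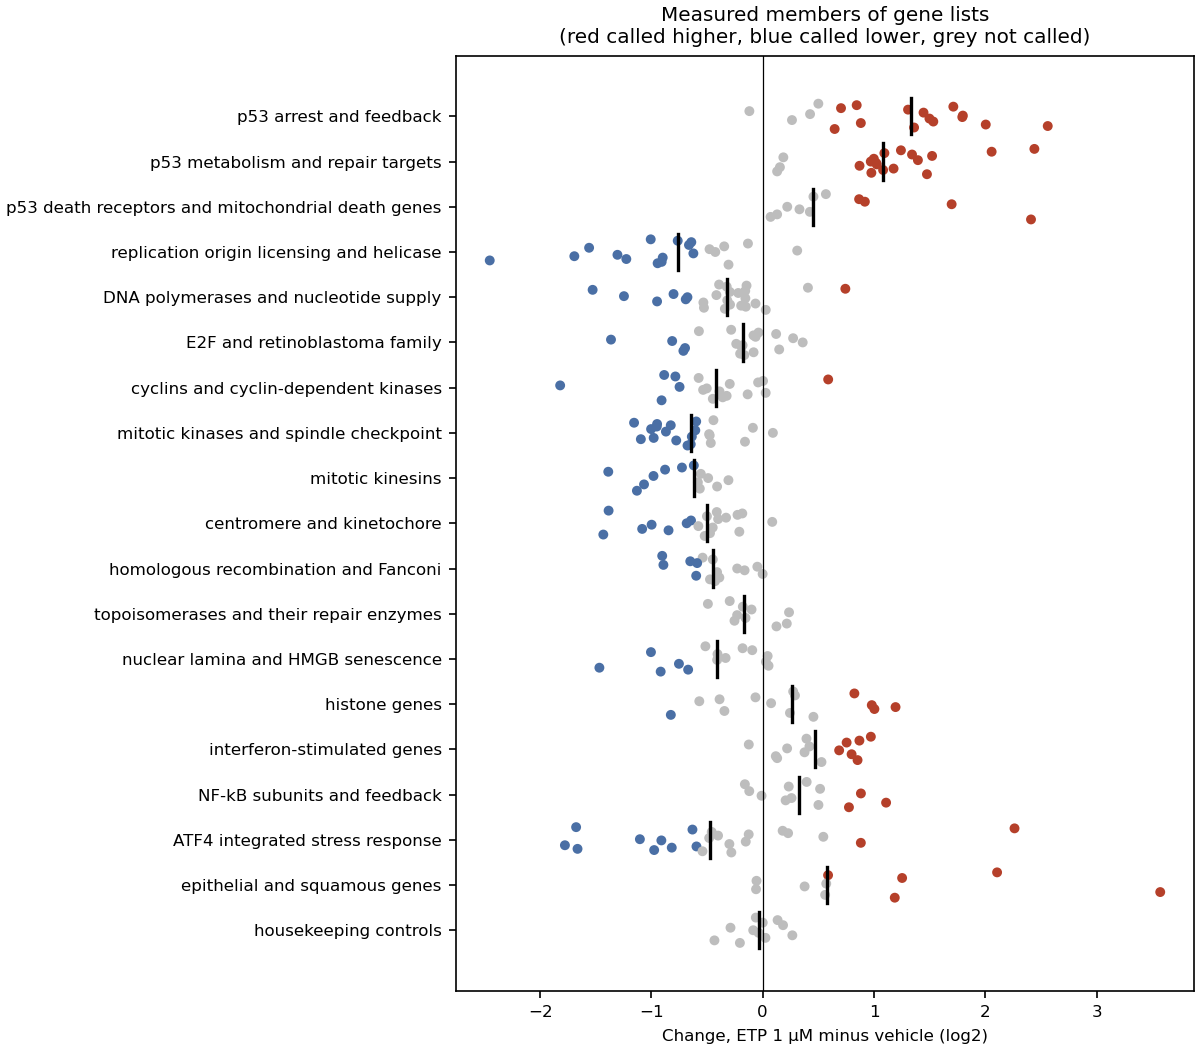
Change of each measured member of gene lists (ETP 1 µM minus vehicle, log2, horizontal axis), 1 point a gene, with a black bar at the list median, red called higher, blue called lower and grey not called. Members of the p53 lists of arrest and of metabolism lie mostly above 0.585 and those of licensing and mitotic lists mostly below 0, while the housekeeping genes lie around 0.

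The mRNAs of the drug's targets were not called changed. None of 10 topoisomerases and repair enzymes of their adducts was called. TOP2A, the isoform of dividing cells, read 11.82, 10.45, 11.67, 11.93 and 11.52 at ETP 1 µM, against 11.91, 11.63, 11.26, 12.09 and 11.64 in vehicle. The groups overlapped, the dosed array numbered 3 stood below the rest, and the change was -0.23 ± 0.13 (adjusted p = 0.129 by limma). It read 0.01 without number 3 and -0.58 with number 2 kept (adjusted p = 0.0872 by limma). TOP2B, the isoform of resting cells, read 10.30, 10.35, 10.27, 10.39 and 10.31 at ETP 1 µM, against 10.42, 10.41, 10.53, 10.42 and 10.62 in vehicle. Its groups did not overlap, but the change of -0.15 ± 0.04 was under 1.5-fold (adjusted p = 0.0030 by limma). TDP2, which releases topoisomerase II from DNA ends, read -0.18, and TDP1, which acts on topoisomerase I, -0.49, both under 1.5-fold.

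A minority of break repair genes was called lower. Of 15 homologous recombination and Fanconi genes, 5 were lower: BARD1, the partner of BRCA1, by 0.90, the resection nucleases EXO1 by 0.89 and DNA2 by 0.59, the helicase BRIP1 by 0.65 and RAD51AP1 by 0.60. The count was 2 of 15 without number 3, without number 4 or with number 2 kept. Over all tested genes 4.00% were called lower. At an adjusted p under 0.05 by limma, without the fold limit, 12 of the 15 were lower and none was higher. Their median change was -0.45. Of 16 end joining and signalling genes, 3 were lower: the checkpoint kinase CHEK1 by 0.85, the damage-marking histone H2AX by 0.82 and its reader MDC1 by 0.71. With the fold limit left aside, 10 of these 16 were lower at an adjusted p under 0.05 by limma, including the 3 called. The list median was -0.17. Of all 11714 tested genes, 6366 passed this p limit alone, in either direction. The Ku subunits XRCC5 and XRCC6 read -0.10 and -0.22 and were not called.

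Several lamina genes were lower at ETP 1 µM, although LMNA, also measured, was not called. LMNB1, the B-type lamin whose loss is used as a mark of senescence, read 9.36, 7.73, 8.27, 8.95 and 8.76 at ETP 1 µM, against 10.58, 9.82, 9.75, 10.19 and 10.08 in vehicle. Every dosed array was below every vehicle array, and the change was -1.47 ± 0.09, or 2.76-fold lower. TMPO, a lamina-binding protein, fell by 0.92, the lamin B receptor LBR by 0.75, LMNB2 by 0.67 and the CDK inhibitor CDKN2D by 1.00, the 5 called of 14 in that list. HMGB2, a chromatin protein also lost in senescence, read -0.41 and HMGB1 -0.33, neither called for want of size, although 2 of the 4 other probe sets of HMGB1 were called lower. Histone genes moved both ways. Of 14, those called higher were H2BC4 by 1.19, H2BC5 by 1.00, H2BC21 by 0.98 and H2AC6 by 0.82. H4C3 fell by 0.83. Histone genes are near-identical copies, and which of them a probe set reads is uncertain. H2BC21 was not called with number 2 kept.

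The largest rises lay outside these pathways. TREM2, a lipid-sensing receptor known from macrophages and microglia, read 7.71, 7.31, 8.64, 8.56 and 8.71 at ETP 1 µM, against 3.18, 3.59, 3.36, 3.07 and 3.56 in vehicle. Its change was 4.83 ± 0.20, or 28.5-fold (adjusted p = 2.3e-21 by limma), and since the vehicle mean of 3.35 was under 4 the size is uncertain. All dosed arrays were far above background and all vehicle arrays under it. TREM1, a related receptor that amplifies inflammation, rose by 1.23, with overlapping groups, and was not called without the replicate block. Of 10 defining blood cell markers with a probe set, among them PTPRC, TYROBP and SPI1, all 10 averaged under 4 in both groups, and their summed level was 31.44 at ETP 1 µM and 30.44 in vehicle. LAPTM5, a lysosomal protein of blood cells, rose by 2.67 from a vehicle mean of 3.72.

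Epithelial and squamous genes rose as well. NECTIN4, an epithelial adhesion receptor, read 9.10, 7.76, 9.17, 9.00 and 9.01 at ETP 1 µM, against 5.43, 5.43, 5.21, 5.32 and 4.79 in vehicle, a change of 3.57 ± 0.17 or 11.9-fold. The dosed array numbered 3 was the lowest but still above every vehicle array. The protease inhibitor CSTA rose by 2.11, the cornified envelope protein IVL by 1.25, SFN (14-3-3 sigma), a p53 target of epithelial cells that holds cells in G2, by 1.19 and desmoplakin (DSP) by 0.59, so 5 of 10 measured members were higher. Of the 8 defining markers, EPCAM, CDH1, KRT5, KRT14 and KRT19 were under 4 in both groups. The other 3 were above 4 in both groups, and none of them was called. KRT7 averaged 7.07 at ETP 1 µM and 6.50 in vehicle, and KRT8 9.30 and 8.92. KRT18 averaged 11.13 and 11.19, a change of -0.06. The summed level of the 8 epithelial markers was 41.90 at ETP 1 µM and 41.01 in vehicle.

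AKR1B10, an aldo-keto reductase that clears aldehydes, read 7.78, 6.53, 7.88, 8.06 and 8.14 at ETP 1 µM, against 4.58, 4.14, 4.26, 3.86 and 3.98 in vehicle, a change of 3.51 ± 0.22 or 11.4-fold. It was the single member called higher of 19 NRF2 and aldo-keto reductase genes, against 3 with number 2 kept. The classical NRF2 target NQO1 read -0.10, and GCLM, of glutathione synthesis, fell by 0.64, a call lost with number 2 kept (-0.38) or without number 4. The matrix gene SULF2, a heparan sulfate endosulfatase, rose by 3.24, MEGF6 by 3.47, CCDC148 by 3.13, LRATD1 by 2.84 and the nuclear receptor co-regulator GREB1 by 2.56. The vehicle means of SULF2, MEGF6 and CCDC148 were under 4. ACTA2, smooth muscle actin, rose by 1.78 and the morphogen BMP2 by 1.72, both without overlap.

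Members of the integrated stress response list moved both ways. The integrated stress response acts through ATF4, which raises genes of amino acid synthesis and uptake. Of 22 members, 9 were lower, 2 were higher and 11 were not called. Without number 3, 12 were lower. On number 3 the mean of the 22 was 7.72 at ETP 1 µM and 7.75 in vehicle, against 7.91 and 8.63 on number 4. ASNS, asparagine synthetase, read 8.98, 7.91, 8.83, 8.43 and 8.60 at ETP 1 µM, against 10.08, 8.93, 11.21, 10.31 and 10.60 in vehicle, a change of -1.68 ± 0.19. Each dosed array was below its vehicle partner, although the vehicle array numbered 3 overlapped the dosed arrays. SLC7A11, the cystine importer, read 7.19, 8.03, 7.22, 6.76 and 6.71 at ETP 1 µM, against 8.68, 8.71, 9.02, 8.78 and 9.03 in vehicle, a change of -1.66 ± 0.16 without overlap. SLC1A4, a neutral amino acid transporter, fell by 1.78, PHGDH, which opens serine synthesis, fell by 1.10, SLC7A5 by 0.97 and ATF4 itself by 0.63. The members higher were ATF3, a stress-induced repressor, by 2.26, and SESN2, which is also a p53 target, by 0.88.

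ATF3 read 8.10, 7.07, 7.78, 7.73 and 8.07 at ETP 1 µM, against 5.32, 5.00, 6.16, 5.30 and 5.66 in vehicle, with all dosed arrays above all vehicle arrays. Of 14 AP-1 and immediate early genes, 1 was higher (JUNB, by 0.60) and 3 were lower, MYC by 0.90, KLF2 by 0.77 and FOSL1 by 0.76. JUN read -0.12. FOSL1 was not called with number 2 kept, nor JUNB without number 4. KLF2 read -0.44 and was not called when the kept probe sets of a gene were averaged.

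Some inflammatory and interferon genes rose. Of 14 interferon-stimulated genes 6 were higher and none lower: IFI27 by 0.97, IFI44 by 0.87, OAS2 by 0.85, ISG15 by 0.80, IFI6 by 0.75 and IFIT3 by 0.69. The groups did not overlap in any of the 6. IFI44 was not called with number 2 kept, and the vehicle mean of OAS2 was 3.76. TAP1, the peptide transporter of antigen presentation, read 8.36, 8.24, 8.50, 8.40 and 8.68 at ETP 1 µM, against 6.97, 7.25, 7.43, 7.08 and 7.19 in vehicle, a change of 1.26 ± 0.08. HLA-B rose by 0.72, also without overlap, and the checkpoint ligand CD274 fell by 0.62, which was not called without the block or with number 2 kept. Of 12 NF-kB genes 3 were higher: RELB, a subunit of the alternative pathway, by 1.11, the inhibitor NFKBIE by 0.88 and the adaptor TRAF1 by 0.77. Without number 3, 5 were higher. Secreted factors moved in opposite directions, with IL6 higher by 0.82 and the neutrophil attractant CXCL8 lower by 1.21, which read -0.61 with an adjusted p of 0.164 by limma with number 2 kept. IL33, at 3.26 in ETP 1 µM and 2.58 in vehicle, was called higher below background level. Its dosed array numbered 3 read 5.19, above the others, and the call was lost without number 3 (0.34) and without the block. IL1B read 0.35 and was not called.

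The remaining lists held few calls. Of 17 chaperones 1 was lower (XBP1), of 13 cholesterol and fatty acid genes 1 (INSIG1), of 16 hypoxia and glycolysis genes 1 (HK2) and of 19 ribosome biogenesis genes 1 (UTP20). Among 6 genes of the aryl hydrocarbon receptor axis, CYP1A1 was higher by 0.61. Of 24 matrix genes 3 were higher, against 1 without the block or with number 2 kept. Of 17 adhesion genes 1 was higher, the cadherin CDH10, by 2.25 from a vehicle mean of 3.89. The calls of CYP1A1 and XBP1 were lost with number 2 kept and that of INSIG1 without the block. Averaging the kept probe sets of a gene lost the calls of HK2 (-0.43) and INSIG1. Both endothelial genes that passed the filter, FLT1 and PECAM1, were not called, and 7 of 8 endothelial markers averaged under 4 in both groups.

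To place 1 µM among the doses, it was set against the doses on either side in the same fit, contrasts that the vehicle arrays do not enter. Against ETP 0.3 µM, 64 of the tested genes differed (0.546%), 40 higher (0.341%) and 24 lower (0.205%) at ETP 1 µM. This count fell to 15 without the replicate block, to 4 with number 2 kept and to 38 without number 4. Without number 5, 37 genes were lower, without the ETP 1 µM array numbered 5, 48, and without the 0.3 µM array numbered 3, 42. Without the 0.3 µM array numbered 4, 26 were higher. All 40 of the higher genes were also called higher against vehicle, as were 19 of the 24 lower ones called lower. The 5 others, APOLD1, DIAPH3, NAV2, NLGN1 and SLC26A4, are named after their values were seen.

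p53 targets differed by less than 1.5-fold across this step, with 1 exception. Of 47, 1 was called higher at 1 µM than at 0.3 µM (TP53I3, by 0.59), against 0.341% of tested genes. None was called between 3 and 1 µM. Some others passed the p limit alone, such as TP53INP1 (0.46, adjusted p = 0.00091 by limma) and PHLDA3 (0.36, adjusted p = 0.0060). In this step 646 of the tested genes passed that limit alone, in either direction. The mean of the arrest and feedback list was higher at 1 than at 0.3 µM on every number. The median change of the 47 from vehicle was 0.88 at 0.3 µM, 1.02 at 1 µM and 1.09 at 3 µM. Their median difference was 0.16 between 1 and 0.3 µM and 0.04 between 3 and 1 µM. CDKN1A averaged 8.91 ± 0.21 in vehicle, 10.39 ± 0.07 at 0.3 µM, 10.62 ± 0.16 at 1 µM and 10.74 ± 0.13 at 3 µM (SD, n = 5 each). These 3 contrasts against vehicle share the vehicle arrays. The 0.3 µM and 1 µM groups of CDKN1A differed by 0.23, with an adjusted p of 0.067 by limma.

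Of 44 replication genes none was called between 1 and 0.3 µM. The 2 called between 3 and 1 µM, POLA1 and PRIM2, were lower at 3 µM. The median differences of the 44 were -0.07 and -0.26 in these steps. Some members passed the p limit but not the fold limit, such as RFC4 between 1 and 0.3 µM (-0.33, adjusted p = 0.0010 by limma). MCM6 averaged 8.46 ± 0.39 at 0.3 µM, 8.16 ± 0.37 at 1 µM and 8.25 ± 0.37 at 3 µM. Of 68 mitosis genes, 9 were called lower at 1 than at 0.3 µM and 24 at 3 than at 1 µM. None was called higher in either step. The 9 became 0 without the replicate block or with number 2 kept, 2 without number 3 and 4 without number 4, at a median difference of -0.35 that was -0.37 with number 2 kept. The 24 became 6 without the block and 7 with number 2 kept. HJURP averaged 8.57 ± 0.26 at 0.3 µM, 7.86 ± 0.53 at 1 µM and 7.00 ± 0.59 at 3 µM, with both steps called, at -0.71 (adjusted p = 0.0028) and -0.86 (adjusted p = 8.3e-05 by limma). LMNB1 was lower in both steps as well, by 0.60 and 0.67. AURKA, a spindle kinase, fell by 0.58 and 0.77, and UBE2C, of the anaphase-promoting complex, by 0.66 and 0.70.

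**Figure D4:**
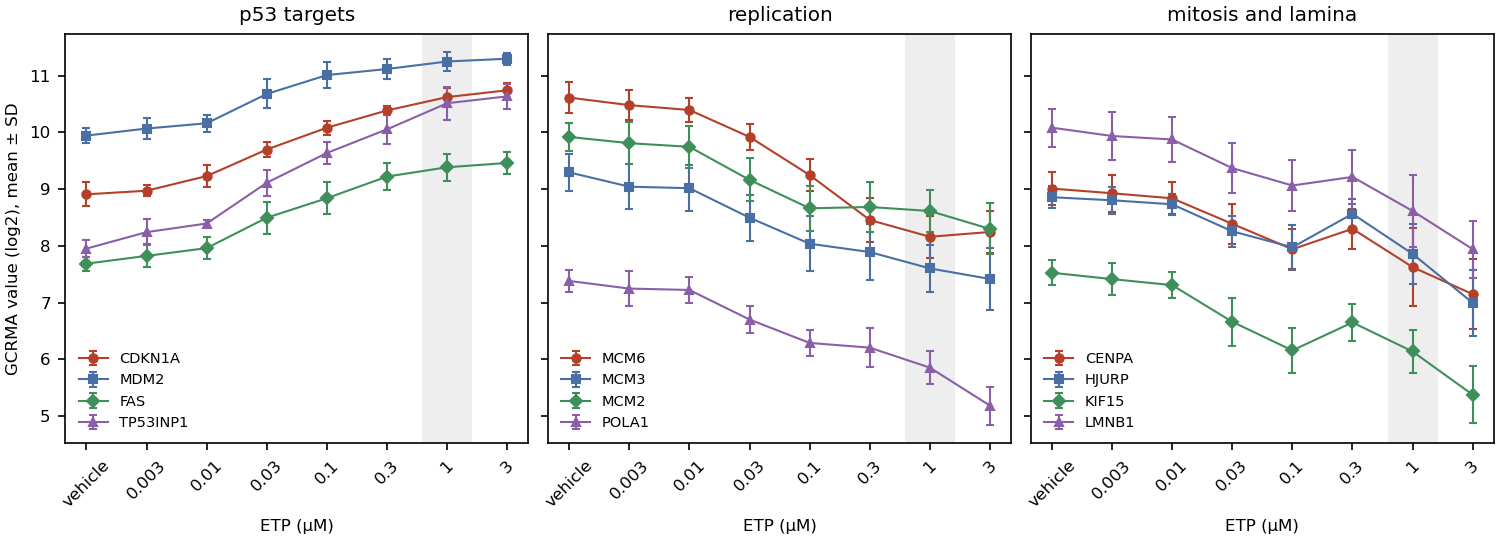
Levels of 12 genes (log2, vertical axis, mean ± SD of 5 replicates a group) in vehicle and at 7 doses of etoposide (µM, evenly spaced steps on the horizontal axis), with 1 µM shaded. CDKN1A and MDM2 are close at 0.3, 1 and 3 µM, MCM6 is lower at these doses than at 0.1 µM, and HJURP and LMNB1 are lower at 3 µM than at 1 µM.

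Genes with the largest rise over 0.3 µM were MEGF6 by 1.19, CEACAM1, an adhesion molecule, by 1.16, TREM2 by 1.15, the lipid receptor S1PR3 by 1.14, AKR1B10 by 1.07 and NBEAP1 by 1.00. TREM2 averaged 3.35 ± 0.23 in vehicle, 7.04 ± 0.64 at 0.3 µM, 8.19 ± 0.63 at 1 µM and 8.25 ± 0.46 at 3 µM. Its level at 3 µM differed from that at 1 µM by 0.06 and was not called. The largest falls in this step were TMEM71 by 0.83, NLGN1, a synaptic adhesion protein, by 0.81, TROAP, a spindle protein, by 0.78, APOLD1 by 0.72, HJURP by 0.71 and NDC80 by 0.69. Of these 12 genes, TREM2, S1PR3 and NLGN1 stayed called with number 2 kept.

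Against ETP 1 µM, ETP 3 µM differed in 115 genes (0.982%), 28 higher (0.239%) and 87 lower (0.743%). Without the replicate block 47 differed and with number 2 kept 49, and 44 were higher without number 3, or 55 without the 3 µM array numbered 3. The largest falls were DIAPH3, a formin that builds actin in dividing cells, by 1.40, the cytokinesis kinase CIT by 1.22, CEP128, of the centriole, by 1.19, BRIP1 by 1.00, NEURL1B by 0.96 and PSRC1, a spindle protein, by 0.94. The largest rises were the insulin-like peptide INSL4 by 1.17, the protease inhibitor SPINK6 by 1.09, FAM83H by 1.01, TRIM58 by 0.95, ITGB2-AS1 by 0.95 and ANKRD1 by 0.94. CSTA rose in both steps, by 0.80 and 0.93, as did ATF3, by 0.81 and 0.80. Of the 644 genes higher at 1 µM, 17 were higher again at 3 µM and 5 were lower, and of the 468 lower genes, 50 were lower again and 1 was higher.

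**Figure D5:**
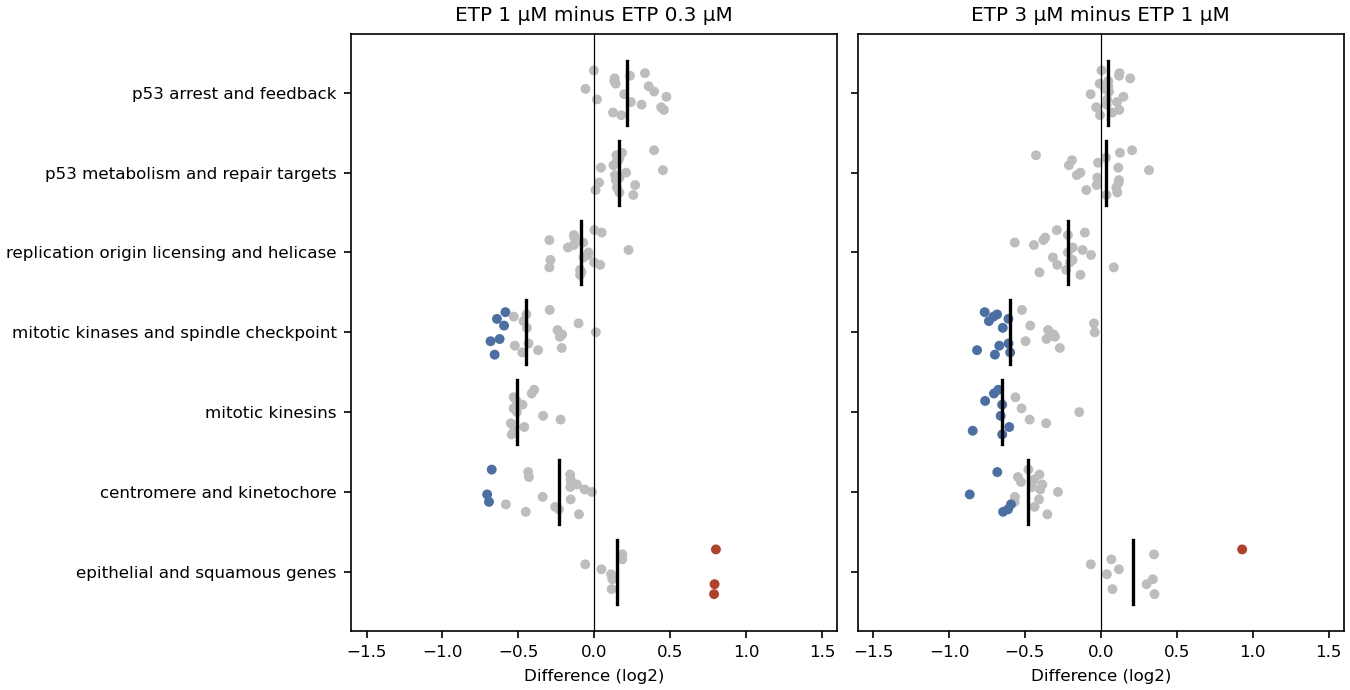
Differences between neighbouring doses for the members of 7 gene lists (log2, horizontal axis), ETP 1 µM minus 0.3 µM at the left and ETP 3 µM minus 1 µM at the right, red called higher, blue called lower, grey not called, black bars at list medians. No member of the p53 lists shown is called in either panel, and members of the mitotic lists lie mostly below 0 in both, 9 and 24 of all 68 mitosis genes being called, or 0 and 7 with number 2 kept.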

How the data were processed

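Total RNA of HT-1080 cells was amplified, labelled with biotin and hybridised to Affymetrix perfect-match-only arrays. Per the submitters' processing notes, the authors made the deposited log2 values in Partek by GCRMA, which corrects background, applies quantile normalization and summarises probes; versions and a genome build are not given in the sources used here. No read depth exists for arrays, so their number limits the precision.

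Among 54613 deposited probe sets the platform annotation gave 1 symbol for 40914, several for 864 and none for 12835, and 40858 symbols equalled RefSeq's by gene ID. A probe set was kept at a log2 value of at least 4 in at least 5 arrays of the fit (25612 kept, of which 3888 had no single symbol and were not named). The probe set with the highest mean stood for a gene, which left 11714 genes. limma 3.58.1 (lmFit, eBayes with a trend) in R 4.3.3 was fitted to all 8 groups of the etoposide experiment, number 2 left out, arrays that repeat a number within a group averaged (40 replicates). The replicate number was a block: deviations from the group means correlated at 0.17 to 0.79 between the ETP 1 µM and vehicle arrays of the same number. Between different numbers the mean was -0.10. Deviations within a group cancel, so positive values for equal numbers make this mean negative, and it is no separate baseline. Pairing by number was also part of the rule by which the arrays were chosen. P-values were adjusted over all tested genes. The fit was tested on simulated data. Tables and figures were made with Python 3.11.15, pandas 2.3.3 and matplotlib 3.10.9.

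Members and gene lists were chosen with earlier results of these data known. Named genes were the 12 largest rises and 12 largest falls among called genes without overlap, up to 4 called and 2 uncalled members of each list, all members of 3 lists, 8 fixed genes (1 of which is not analysed here) and the 6 largest rises and 6 largest falls of each dose step; members of a list counted in the text were also named from the list. Promoters were those of called genes of the replication and mitosis lists with the motifs. No named p53 target that was called higher held the half-site. Alternatives were the fit without the block, with number 2 kept, with the compared groups only, other filters, the mean of probe sets, quantile normalization, median centring, no trend, and leaving out each number or array.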

Additional observations from a re-analysis of the deposited data

Results flagged for a closer look

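Within each group of 5 arrays, the highest or lowest array was compared with the nearest of the others for 238 genes in both groups, or 476 tests, and 36 values lay apart by more than Dixon's critical value of 0.71. Chance would give about 1 in 20 of such tests. Values are log2.

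The ETP 1 µM array numbered 3 was the lowest in 12 genes: AKR1B10 6.53, CCDC148 4.85, GINS4 5.66, H3-3B 11.63, IDI1 9.14, INSIG1 8.71, KRT18 10.85, MEGF6 5.95, NBEAP1 4.61, NECTIN4 7.76, PMAIP1 9.56 and TOP2A 10.45. Among these, AKR1B10, CCDC148, MEGF6, NBEAP1 and NECTIN4 are large rises, and TOP2A is the target of the drug. The same array was the highest in 5 genes: HLA-C 10.10, IL11 9.53, IL33 5.19, IL6 6.27 and STAG1 9.53. The ETP 1 µM array numbered 1 was the highest in MCM2 9.27 and the lowest in H2BC5 9.25.

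The vehicle array numbered 1 was the highest in 9 genes: CDT1 9.53, HSPA8 13.39, IVL 4.82, MCM2 10.34, MDC1 8.28, PLK4 9.29, POLD3 8.31, WDR76 5.75 and ZNF367 9.30. Several of these act in replication or centriole duplication. It was the lowest in H2BC5 8.22, IFIH1 6.19 and RPS27L 12.68. The vehicle array numbered 3 was the lowest in IDI1 9.43, INSIG1 9.46, PMAIP1 9.50 and SLC1A4 5.11, and the vehicle array numbered 6 in CDIP1 6.07. For IDI1, INSIG1 and PMAIP1 the array numbered 3 was the lowest in both groups, and for H2BC5 the array numbered 1, which the replicate block removes from the change.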

How the results depend on the processing

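None of the 148 named genes that were called changed direction under any alternative, while 16 named genes that were not called took the other sign in at least 1. The direction of the other called genes was not followed across the alternatives. The count of 1112 genes at ETP 1 µM ranged from 1063 to 1253 when 1 number or array was left out (596 to 733 higher, 433 to 536 lower), and was 1061 without the replicate block, all of them shared, and of the gene lists only 5 moved by over 1.5 times without it (cytokines and blood markers 1 higher, matrix 1 higher, MHC and cholesterol 0 lower). With number 2 kept, further list counts were 0 lower for the BCL2 family, cytokines, MHC and chaperones, 0 higher for cyclins and the aryl hydrocarbon receptor axis, 1 lower for NRF2 and matrix, and 2 lower for histones and cholesterol. Between 1 and 0.3 µM the fit without the block gave 15 genes (10 higher, 5 lower) and number 2 kept gave 4 (3 and 1), and leaving out 1 number or array gave 38 to 79 (23 to 59 and 15 to 48). Between 3 and 1 µM these were 47 (6 and 41), 49 (9 and 40) and 99 to 147 (22 to 55 and 64 to 125). Members called were 13 to 14 for p53 arrest and feedback, 16 to 16 for p53 metabolism and repair, 10 to 13 for licensing and 9 to 14 for mitotic kinases when 1 number or array was left out, the lowest of the last 2 without number 3. Of 148 named genes called, 117 stayed called under every alternative in which they were fitted (24, or 23 for 4 of them), 21 were lost with number 2 kept and 12 without the block. Another scaling moved the median of all genes to 0.03 (quantile) or 0.01 (median centring), from 0.02. With 5 arrays a group, a change that was not called is not shown to be absent.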

Other observations

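Several genes, chosen after their values were seen, turned between doses. BGLAP, the bone matrix protein osteocalcin, differed from vehicle by 1.58, 1.40 and 0.57 at 0.3, 1 and 3 µM, and its fall between 1 and 3 µM was called (-0.83, adjusted p = 1.6e-05 by limma). CSPG4, a proteoglycan of mesenchymal and tumour cells, changed by 1.19, 1.27 and 0.61 at these doses, NEURL1B by 1.65, 1.52 and 0.56, and TMT1A by 2.09, 1.93 and 1.19. ESM1, a secreted proteoglycan, was the single gene lower at 1 µM (-1.23) and higher at 3 than at 1 µM (0.68). DIAPH3, which did not turn, changed by 0.04, -0.55 and -1.95. The 3 changes of each gene share the vehicle arrays.

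In 3 mitosis genes, also chosen after their values were seen, the mean at 0.3 µM was above those at 0.1 and 1 µM. HJURP averaged 7.98 ± 0.40 at 0.1 µM, 8.57 ± 0.26 at 0.3 µM and 7.86 ± 0.53 at 1 µM (SD, n = 5 each), and KIF15 6.16 ± 0.39, 6.65 ± 0.33 and 6.14 ± 0.39. CENPA averaged 7.94 ± 0.35, 8.30 ± 0.36 and 7.63 ± 0.69. The difference between 0.1 and 0.3 µM was not tested.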
